A study of Mus musculus with 6 samples.

Results

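Genes of the p53 pathway were followed in Ba/F3, a mouse line of early B-lineage origin that grows on interleukin 3, with a doxycycline-inducible NCOR1-LYN construct. The members were a list of 30 genes, Trp53 itself with its regulators and genes that p53 switches on, each read from its brightest probe set, the one with the highest mean over the 6 arrays. Of the 30 genes, 28 had a probe set assigned to that gene alone, among 18193 genes so covered, and 24 were bright enough to be tested, among 10916. Trp53 and Fdxr, a mitochondrial reductase, had no such probe set and were not analysed here. Plk2, Perp, Eda2r and Ephx1 were dim, with mean signals below the limit of 47.0 used for testing, and are given as values only.

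The 6 arrays were 3 NCOR1-LYN samples, from cells given doxycycline to induce the fusion protein, and 3 control samples, from cells of the same kind left uninduced. NCOR1 is a nuclear receptor corepressor and LYN a SRC family tyrosine kinase. The vector was a retroviral Tet-on system, and the labels describe triplicate cultures and do not say whether the cells were 1 clone or how the replicates were kept apart, and p-values therefore cover only the spread among these samples, which may be technical. Effects of the drug and of the fusion cannot be told apart, because doxycycline was given wherever the fusion was induced and nowhere else. Expression of the fusion was not followed on these arrays. A lower bulk signal can come from fewer cells with the transcript or from less of it per cell, and these cannot be told apart.

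p53 is a transcription factor that is held at a low level by the ubiquitin ligase MDM2 and its partner MDM4 and becomes stable after DNA damage, nucleolar stress or oncogene signals. It then switches on genes that stop the cell cycle, drive cell death and aid DNA repair, and also the genes of its own inhibitors, so that the response limits itself. Through p21, the product of Cdkn1a, it also lowers genes of mitosis. In lymphoid precursors p53 is best known as a barrier to the outgrowth of damaged or oncogene-driven cells.

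Replicate 1 stood apart from replicates 2 and 3 in both groups, which touches most results below. Median signals ran from 54.8 to 61.9 on NCOR1-LYN arrays and from 56.0 to 57.0 on control arrays after the authors' scaling, and precision is limited by the 6 arrays. Of the defining markers, the pan-leukocyte gene Ptprc had signals of 8278 to 10434 in NCOR1-LYN and 9474 to 10078 in control samples, and the B-lineage gene Cd79b 412 to 461 in NCOR1-LYN and 403 to 577 in control samples. The B-lineage markers Cd79a, Vpreb1, Ebf1, Rag1 and Cd24a lay below the limit for testing in the mean. The summed signal of 6 fibroblast markers was 73.8 to 187 in NCOR1-LYN and 114 to 228 in control samples, and that of 5 T cell markers 101 to 129 in NCOR1-LYN and 118 to 155 in control samples.

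The promoter windows of 3 members held sequence close to a p53 response element, which joins a pair of half-sites of 10 bases. They are shown because they held a match under the setting below. Signals of Cdkn1a and Ccng1 differed widely between replicates while those of Rps27l did not, and a link with the match was not tested. Phlda3, Btg2 and Ercc5, whose signals also differed widely between replicates, had a window without a match. Windows ran from 250 bases before to 50 bases after a transcript start in RefSeq on build GRCm38.p6, and 23 of the 30 members had at least 1 window there. They were searched for the p53 half-site consensus, which reads the same on both strands, as 2 adjacent half-sites with no spacer, the core cytosine and guanine of both kept and at most 1 mismatch elsewhere. This setting was chosen after the windows had been seen. Such a match was found for 3 of 23 member genes, against 0.0814% of 27025 genes with a window, and in 0.067% of 32851 windows. A single half-site without mismatch was in a window of 11 of 23 member genes, against 9.55% of all genes. A match is a description of the letters only. The windows follow with the match in capitals, 5′ to 3′ on the strand of the gene. The Cdkn1a window is at chr17:29090729-29091028, plus strand, at the upstream one of 2 listed starts, with its match 51 to 32 bases before that start. The Ccng1 window is at chr11:40755237-40755536, minus strand, with its match 195 to 176 bases before the start. The Rps27l window is at chr9:66946163-66946462, plus strand, at the downstream one of 2 listed starts, with its match 117 to 98 bases before it.
Cdkn1a: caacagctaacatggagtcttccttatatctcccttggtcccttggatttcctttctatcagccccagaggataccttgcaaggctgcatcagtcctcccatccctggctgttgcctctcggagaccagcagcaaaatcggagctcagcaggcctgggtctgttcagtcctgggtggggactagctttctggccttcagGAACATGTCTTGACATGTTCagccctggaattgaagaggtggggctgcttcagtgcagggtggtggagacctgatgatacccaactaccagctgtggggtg
Ccng1: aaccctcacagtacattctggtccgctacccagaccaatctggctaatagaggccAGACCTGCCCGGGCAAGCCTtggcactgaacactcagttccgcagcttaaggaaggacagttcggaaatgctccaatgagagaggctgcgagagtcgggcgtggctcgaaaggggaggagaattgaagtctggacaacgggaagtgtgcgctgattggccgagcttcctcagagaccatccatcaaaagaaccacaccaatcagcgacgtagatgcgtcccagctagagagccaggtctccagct
Rps27l: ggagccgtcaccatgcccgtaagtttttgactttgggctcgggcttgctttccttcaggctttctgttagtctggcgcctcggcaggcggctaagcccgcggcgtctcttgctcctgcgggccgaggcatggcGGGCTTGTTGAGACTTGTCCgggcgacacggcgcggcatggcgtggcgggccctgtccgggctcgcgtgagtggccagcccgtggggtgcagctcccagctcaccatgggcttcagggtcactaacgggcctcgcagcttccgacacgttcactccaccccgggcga

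The question of the design was which pathways changed when NCOR1-LYN was induced. Most p53 pathway genes stood slightly lower with NCOR1-LYN, and the differences were small beside those between replicates. Of 24 tested members, 11 were lower in all 3 same-numbered pairs of arrays, against 18.9% of all genes tested, and 2 were higher in all pairs, against 15.9%. In pairs 2 and 3 alone, 15 members were lower in both, against 31.4% of all genes. In the mean over arrays 19 members were below 0, against 52.8% of all genes, and the median log2 fold change of the members was −0.20, beside −0.01 for all genes tested. The pair medians were −0.13, −0.21 and −0.21 for pairs 1, 2 and 3, beside −0.03, −0.02 and 0.01 for all genes. Fold changes are on the log2(signal + 64) scale, on which changes of dim genes come out too small.

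Without a term for the replicate number, 0 of 24 members passed an adjusted p of 0.05 in limma, against 0.0824% of all genes, and 1 (Sesn1) had an unadjusted p under 0.05, against 4.75%. With the replicate number as a block, 1 of 24 fell (Trp53inp1), against 0.559% of all genes that fell, and 0 rose. In that limma fit 9 members had an unadjusted p under 0.05, 7 lower and 2 higher, against 11.3% of all genes in either direction and 6.72% lower. Without both replicate 1 arrays, 6 members fell in limma, against 3.64% of all genes, and 1 rose, against 3.18%, but that fit held only 2 arrays per group. It also left out arrays that earlier results of these data had set apart, so its p-values are a description and no further support. The 6 were Trp53inp1, Cdkn1a, Ccng1, Zmat3, Sesn1 and Plk3, and the 1 was Gadd45a. In that fit Plk3 had both NCOR1-LYN arrays below the limit for testing (43.1 and 31.6), so its size is uncertain, and over all arrays its log2 fold change was −0.82 with an offset of 16 in place of 64 and −0.21 with a larger one.

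**Figure D1:**
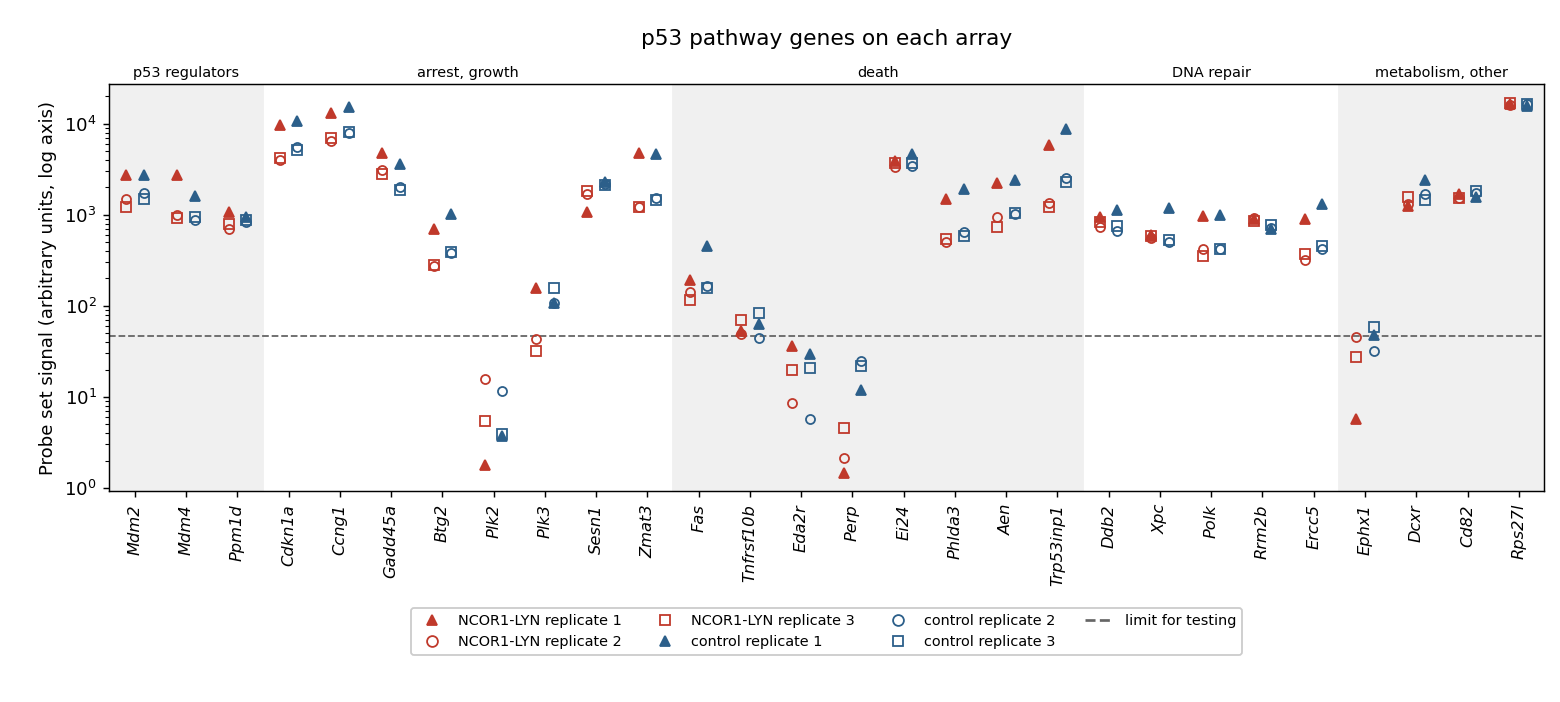
Signal of the brightest probe set (log axis, arbitrary units) of 28 p53 pathway genes on each array, NCOR1-LYN in red left of control in blue, replicate 1 as filled triangles and replicates 2 and 3 as open circles and squares, with the limit for testing (a signal of 47.0) dashed. For Cdkn1a, Ccng1, Zmat3, Phlda3, Aen and Trp53inp1 both triangles lie above the 4 open symbols, while the Rps27l symbols lie together between 15810 and 17073.

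Among the regulators of p53, the inhibitors differed more between replicates than between groups. Mdm2, the ubiquitin ligase that marks p53 for degradation, had signals of 2743, 1477 and 1207 in NCOR1-LYN replicates 1, 2 and 3, against 2757, 1749 and 1493 in control replicates 1, 2 and 3. In this probe set both replicate 1 arrays were high and nearly equal, and NCOR1-LYN replicates 2 and 3 lay below their controls, with overlapping groups (log2 fold change −0.18 ± 0.33, SE, adjusted p in limma 0.999). A second Mdm2 probe set, with a mean signal of 1648, had 2394 in NCOR1-LYN and 3137 in control replicate 1, and its pair differences were −0.38, −0.28 and −0.22. Mdm4, which masks the activation domain of p53, had 2759, 1005 and 936 in NCOR1-LYN replicates, against 1606, 887 and 937 in control replicates. Its difference lay mainly in the replicate 1 pair, with pair differences of 0.76, 0.17 and 0.00 on the log2 scale. A second Mdm4 probe set, with a mean signal of 382, had pair differences of 0.67, 0.16 and 0.05. Ppm1d, the phosphatase WIP1 that removes activating phosphates from p53 and its kinases, had 1062, 704 and 801 in NCOR1-LYN and 937, 836 and 869 in control replicates, overlapping. A second Ppm1d probe set differed in the sign of the mean difference (0.06, against −0.06 in the brightest).

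Among the arrest genes, Cdkn1a, Ccng1, Btg2 and Sesn1 were lower in every pair and Gadd45a was higher. Cdkn1a, which encodes the cyclin-dependent kinase inhibitor p21, had signals of 9705, 4046 and 4176 in NCOR1-LYN replicates 1, 2 and 3, against 10734, 5536 and 5190 in control replicates. Each NCOR1-LYN array lay below its same-numbered control, but the groups overlapped because both replicate 1 arrays were high. The log2 fold change was −0.30 ± 0.40 without and ± 0.10 with the block (SE), and it passed in neither limma fit (adjusted p = 0.999 and 0.309). Without both replicate 1 arrays, a fit chosen with earlier results of these data known, it fell by 0.38 on the log2 scale (adjusted p in limma 0.00606). Ccng1, cyclin G1, which acts with a phosphatase in the control of MDM2, had 13334, 6420 and 6936 in NCOR1-LYN, against 15488, 7933 and 8146 in control replicates. Its pair differences were −0.22, −0.30 and −0.23, and those of its other probe sets lay between −0.47 and −0.26. Btg2, an antiproliferative cofactor of mRNA deadenylation, had 697, 272 and 280 in NCOR1-LYN, against 1028, 381 and 394 in control replicates. Again each array was below its paired control while the groups overlapped, with a log2 fold change of −0.45 ± 0.11 (SE with the block, adjusted p in limma 0.179).

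Gadd45a, a sensor of DNA damage and other stress that p53 and other factors switch on, had 4822, 3152 and 2782 in NCOR1-LYN, against 3591, 2008 and 1879 in control replicates. It was higher in all 3 pairs, by 0.42, 0.63 and 0.55 on the log2 scale, and the groups overlapped only through control replicate 1. The adjusted p in limma was 0.999 without and 0.0676 with the block, so it did not pass in either. It was 0.0015 without both replicate 1 arrays, a fit chosen with earlier results of these data known. Sesn1, which restrains mTORC1 under stress, had 1074, 1692 and 1810 in NCOR1-LYN, against 2281, 2193 and 2155 in control replicates. Its groups did not overlap, as for 6.06% of all genes in this direction, and its log2 fold change was −0.55 ± 0.20 (SE, adjusted p in limma 0.903, and 0.256 with the block). The difference was largest in replicate 1, and 2 further Sesn1 probe sets had pair 1 differences of −1.61 and −0.93 beside −0.31 to 0.11 in pairs 2 and 3. Zmat3, an RNA-binding protein that tunes splicing for p53, had 4780, 1206 and 1214 in NCOR1-LYN, against 4664, 1517 and 1476 in control replicates. Plk3, a stress-responsive kinase near the dim end, had 157, 43.1 and 31.6 in NCOR1-LYN, against 108, 108 and 158 in control replicates, with pair differences of opposite sign (0.36, −0.68 and −1.21). Plk2, another kinase of that family, had signals of at most 15.9 on all arrays.

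**Figure D2:**
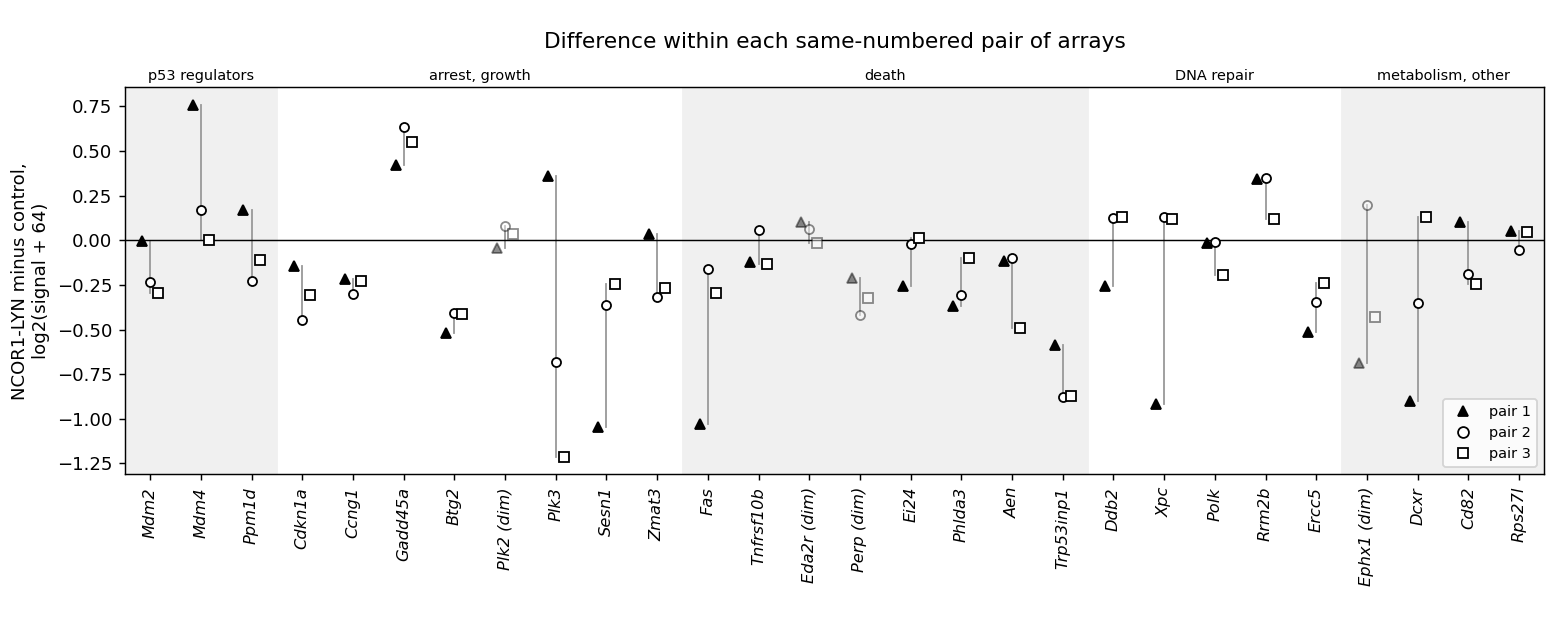
Difference of NCOR1-LYN minus control in log2(signal + 64) within each same-numbered pair (filled triangle, pair 1; open circle, pair 2; open square, pair 3) for 28 p53 pathway genes by role, with dim genes in pale symbols. Trp53inp1 lies between −0.88 and −0.59 and Gadd45a between 0.42 and 0.63 in all 3 pairs, while Xpc, Fas, Sesn1 and Dcxr have their lowest value in pair 1.

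Among the death genes, Trp53inp1 had the largest difference that was alike in all pairs. It encodes a stress protein that acts with p53 in cell death and autophagy. Its signals were 5883, 1337 and 1234 in NCOR1-LYN replicates 1, 2 and 3, against 8858, 2516 and 2310 in control replicates. Each NCOR1-LYN array was well below its same-numbered control, whereas replicate 1 was several times higher than the other replicates in both groups. The log2 fold change was −0.78, with an SE of 0.70 without the block and 0.10 with it. The adjusted p in limma was 0.999 without the block and 0.0281 with it. The fit without both replicate 1 arrays, left out because they stood apart, gave 0.000136 in limma and is no further support. A dimmer probe set of Trp53inp1, with a mean signal of 181, had pair differences of −0.43, −0.97 and −0.51.

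The other death genes did not pass in any of the 3 fits. Fas, the death receptor CD95, had 191, 141 and 117 in NCOR1-LYN, against 456, 166 and 158 in control replicates. Both replicate 1 arrays were above the 4 others, control replicate 1 by far more, and the pair 1 difference of −1.03 exceeded those of −0.16 and −0.29 in pairs 2 and 3. Phlda3, a p53 target that blocks AKT at the membrane, had 1481, 506 and 538 in NCOR1-LYN, against 1928, 641 and 581 in control replicates. Aen, an exonuclease that degrades DNA in apoptosis, had 2249, 941 and 731 in NCOR1-LYN, against 2442, 1012 and 1053 in control replicates. Both were lower in every pair by 0.10 to 0.49 on the log2 scale with overlapping groups, and of the 3 dimmer Aen probe sets 2 had mean differences above 0 (0.01 and 0.16). Ei24, an endoplasmic reticulum protein of the death and autophagy pathways, had 3398 to 3903 in NCOR1-LYN and 3451 to 4679 in control samples. Tnfrsf10b, the TRAIL receptor, had 48.6 to 70.7 in NCOR1-LYN and 44.2 to 83.8 in control samples, close to the limit for testing. Perp, a membrane protein of p53-dependent death, had 1.46 to 4.58 in NCOR1-LYN and 11.8 to 24.5 in control samples, and Eda2r, a receptor of the TNF receptor family, 8.62 to 36.3 in NCOR1-LYN and 5.66 to 29.6 in control samples. At these levels, all below the limit, the order of the arrays was not read.

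The repair genes divided. Ercc5, the endonuclease XPG of nucleotide excision repair, had 898, 316 and 374 in NCOR1-LYN, against 1312, 419 and 454 in control replicates, lower in each pair with overlapping groups. Polk, a translesion DNA polymerase, had 980, 420 and 357 in NCOR1-LYN, against 990, 423 and 419 in control replicates, so that pairs 1 and 2 were nearly equal (−0.01 each). Rrm2b, the p53-induced subunit of ribonucleotide reductase, had 901, 932 and 851 in NCOR1-LYN, against 698, 719 and 780 in control replicates. Its groups did not overlap and NCOR1-LYN was the higher, as for 5.18% of all genes, with a log2 fold change of 0.27 ± 0.12 (SE, adjusted p in limma 0.999, and 0.419 with the block). Dimmer Rrm2b probe sets with mean signals of 308 and 78.0 were also higher in every pair. That with a mean signal of 78.4 had overlapping groups and pair differences of −0.12, 0.68 and −0.04. Xpc, which recognises DNA lesions, had 606, 559 and 587 in NCOR1-LYN, against 1202, 505 and 535 in control replicates. Only control replicate 1 stood out, so the sign of the difference turned from −0.92 in pair 1 to 0.13 and 0.12 in pairs 2 and 3. Ddb2, its partner in damage recognition, also turned in sign, with pair differences of −0.25, 0.13 and 0.13. Its signals were 937, 740 and 833 in NCOR1-LYN, against 1129, 673 and 755 in control replicates, so replicate 1 was the highest in both groups.

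The remaining tested members did not pass in any of the 3 fits. Rps27l, a ribosomal protein paralogue known as a p53 target, had 16363, 16001 and 17073 in NCOR1-LYN, against 15810, 16616 and 16537 in control replicates. All 6 arrays lay close together (log2 fold change 0.01 ± 0.10, SE), and its probe sets may share signal with the near-identical Rps27. Cd82, a tetraspanin, had 1525 to 1679 in NCOR1-LYN and 1563 to 1834 in control samples. Dcxr, a carbonyl reductase, had 1259 to 1584 in NCOR1-LYN and 1444 to 2407 in control samples, overlapping. Ephx1, the microsomal epoxide hydrolase, had 5.71 to 45.8 in NCOR1-LYN and 31.8 to 58.8 in control samples and was too dim to test.

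The larger difference in these genes was between replicates and was present with and without NCOR1-LYN. In 17 of 24 tested members both replicate 1 arrays were above all 4 other arrays, against 26.8% of all genes tested, and in 0 members both were below, against 21.4%. Replicate 1 was at least 1.5-fold above the mean of replicates 2 and 3 (on the log2(signal + 64) scale) in both groups for 12 members, against 5.66% of all genes. These 12 were Mdm2, Mdm4, Cdkn1a, Ccng1, Gadd45a, Btg2, Zmat3, Phlda3, Aen, Trp53inp1, Polk and Ercc5. No test was made, because replicate 1 was singled out after earlier results of these data had set it apart, and the labels give no day, batch or passage for it. Within NCOR1-LYN, replicate 1 was above both other replicates for 19 members, against 44.8% of all genes. Within control samples it was so for 19 members, against 48.9%. The groups are not separate evidence, because deviations of the replicate 1 arrays from their group means correlated at 0.62 across all genes tested.

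The median member stood 0.84 higher in replicate 1 than in replicates 2 and 3 of NCOR1-LYN and 0.82 higher in control samples on the log2 scale, beside 0.03 and 0.05 for all genes tested. By linear signal, Trp53inp1 was 4.58 times as high in replicate 1 as in the mean of replicates 2 and 3 in NCOR1-LYN and 3.67 times in control samples, Zmat3 3.95 and 3.12 times, Ercc5 2.60 and 3.01 times and Aen 2.69 and 2.36 times. The shifts of the 2 groups correlated at r = 0.72 over the 24 members and 0.62 over all genes, as a description over genes of the same 6 arrays. Of 13 further probe sets above the limit in 8 of the 12 genes, 10 had the higher signal in replicate 1 of NCOR1-LYN and of control, and the exceptions were 1 dim probe set of Mdm2 and 2 of Mdm4. One of these, the Mdm4 probe set with a mean signal of 382, was 0.47 higher in replicate 1 of NCOR1-LYN and 0.093 lower in that of control on the log2 scale, and the other was lower in both. Those 12 genes were picked for a high replicate 1. Over all tested members, 25 further probe sets in 15 genes were above the limit. Of these, 13 had replicate 1 shifts of the same sign as the brightest probe set in both groups. The second Ppm1d probe set was lower in replicate 1, by 0.18 in NCOR1-LYN and 0.13 in control samples, unlike the brightest. That of Ddb2 was lower by 0.08 in NCOR1-LYN and higher by 0.35 in control samples. By brightest probe set, Sesn1, Plk3, Tnfrsf10b, Rrm2b, Dcxr, Cd82 and Rps27l did not have both replicate 1 arrays above the 4 others. In that probe set, Sesn1 was lower in replicate 1 by 0.67 in NCOR1-LYN and higher by 0.07 in control samples. Dcxr was likewise lower by 0.19 in NCOR1-LYN and higher by 0.60 in control samples. Further Sesn1 probe sets with mean signals of 1422 and 902 were lower in replicate 1 of both groups (−0.23 and −0.22 in control samples). That with a mean signal of 52.3 was lower by 0.34 in NCOR1-LYN and higher by 0.08 in control samples.

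**Figure D3:**
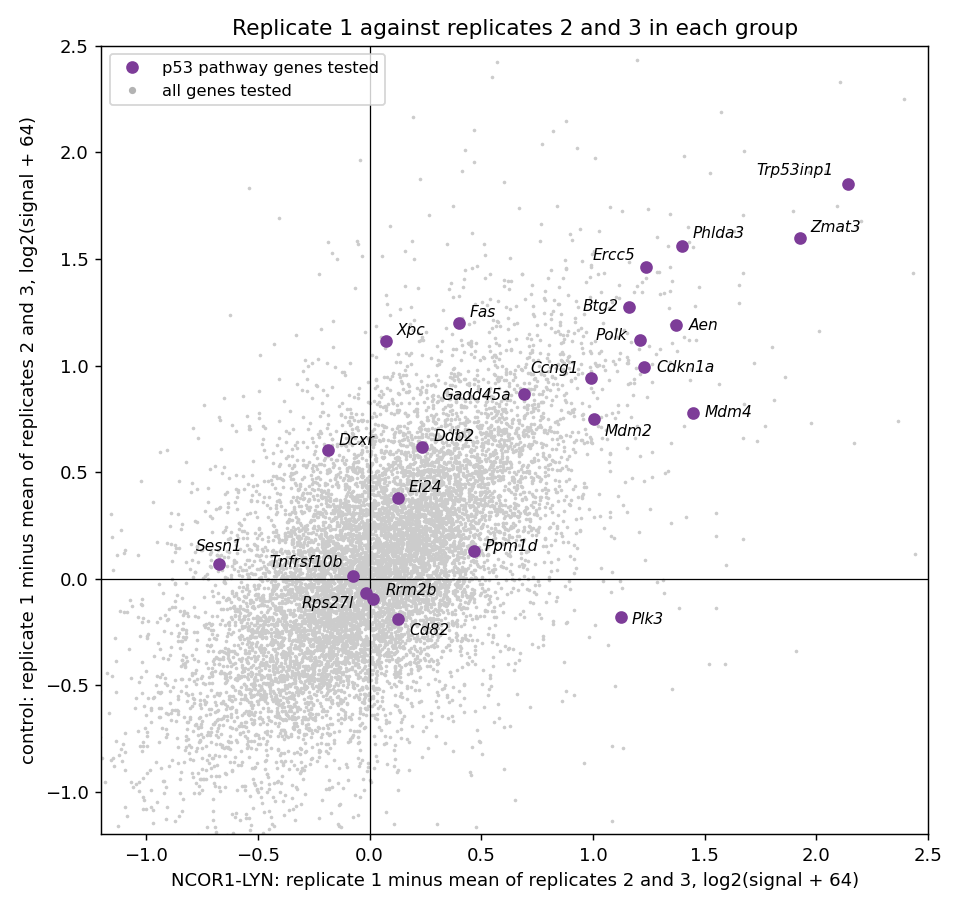
Replicate 1 minus the mean of replicates 2 and 3 in log2(signal + 64), NCOR1-LYN on the horizontal and control on the vertical axis, for 24 tested p53 pathway genes (purple) and all genes tested (grey, 182 of 10916 beyond the axes). Trp53inp1 and Zmat3 lie farthest to the upper right, and Rps27l, Rrm2b, Tnfrsf10b and Cd82 near 0 in both groups.

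Other parts of the pathway were read from lists drawn up for this work. Of 19 tested further p53 targets, 0 passed in limma without or with the block, with 0 without and 6 with the block at an unadjusted p under 0.05, against 4.75% and 11.3% of all genes. All 6 were lower, against 6.72% of all genes, and the median log2 fold change of the list was −0.09, beside −0.01 for all genes. Ak1, an adenylate kinase, had the largest difference of these, with signals of 1974, 417 and 503 in NCOR1-LYN, against 2794, 666 and 730 in control replicates (log2 fold change −0.53 ± 0.10, SE with the block, adjusted p in limma 0.0869). Replicate 1 was again high in both groups for Ak1, as it was for 11 of the 19 genes, against 26.8% of all genes. Without both replicate 1 arrays with 2 arrays per group, 4 of the list fell in limma (Ak1, Bbc3, Bid and Pml), against 3.64% of all genes, and 1 rose (Triap1), against 3.18%. Bbc3, which encodes the BH3-only killer PUMA, had 1731, 831 and 746 in NCOR1-LYN, against 1802, 1261 and 1243 in control replicates, and was named after its values were seen. In the list 6 genes were at least 1.5-fold higher in replicate 1, in NCOR1-LYN and in control samples alike, against 5.66% of all genes.

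Of 22 tested kinases, cofactors and other genes acting on p53, 1 fell with the block, against 0.559% of all genes, and 21 did not pass. Without the block 0 passed in limma, with 2 at an unadjusted p under 0.05, against 4.75% of all genes. The gene that fell was Cdkn2a, whose locus encodes the MDM2 inhibitor ARF and the kinase inhibitor p16. Its signals were 531, 853 and 947 in NCOR1-LYN replicates 1, 2 and 3, against 1144, 1552 and 1513 in control replicates. The groups did not overlap, and the pair differences were −1.02, −0.82 and −0.64 on the log2 scale. The log2 fold change was −0.83 ± 0.11 (SE with the block, adjusted p in limma 0.0305, and 0.61 without the block). Its single probe set does not tell the 2 products apart. Cdkn2a was lower in replicate 1 than in replicates 2 and 3, by 0.70 in NCOR1-LYN and 0.40 in control samples. The median replicate 1 shift of this list was 0.04 in NCOR1-LYN and 0.02 in control samples.

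Of 19 tested mitosis genes that p53 lowers through p21, 0 passed in limma without or with the block, and 0 had an unadjusted p under 0.05 in either. Without both replicate 1 arrays 0 passed in limma and 4 had an unadjusted p under 0.05. All 4 were lower, against 1116 of 10916 genes. In pairs 2 and 3 alone 10 were lower in both, against 31.4% of all genes, and 0 were higher, against 30%. The median log2 fold change of the list was −0.03, and the pair medians were 0.15, −0.16 and −0.06 for pairs 1, 2 and 3. Foxm1, a transcription factor of mitosis, had the largest change at 0.24 ± 0.21 (SE with the block). Its difference lay mainly in pair 1, with pair differences of 0.88, −0.19 and 0.02. By replicate most lay opposite to most of the targets, and a part of p53 in this was not tested. In NCOR1-LYN, replicate 1 was above both others for 3 genes (Foxm1, Bub1b and Kif23), against 44.8% of all genes. In control samples it was so for 0 genes, against 48.9%. In 14 of 19 both replicate 1 arrays were below all 4 others, against 21.4% of all genes, and in 0 both were above. The median shift was −0.28 in NCOR1-LYN and −0.55 in control samples. Birc5, the survivin gene, had 4018, 6477 and 6629 in NCOR1-LYN and 3650, 6852 and 6669 in control replicates 1, 2 and 3, and was named after its values were seen.

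**Figure D4:**
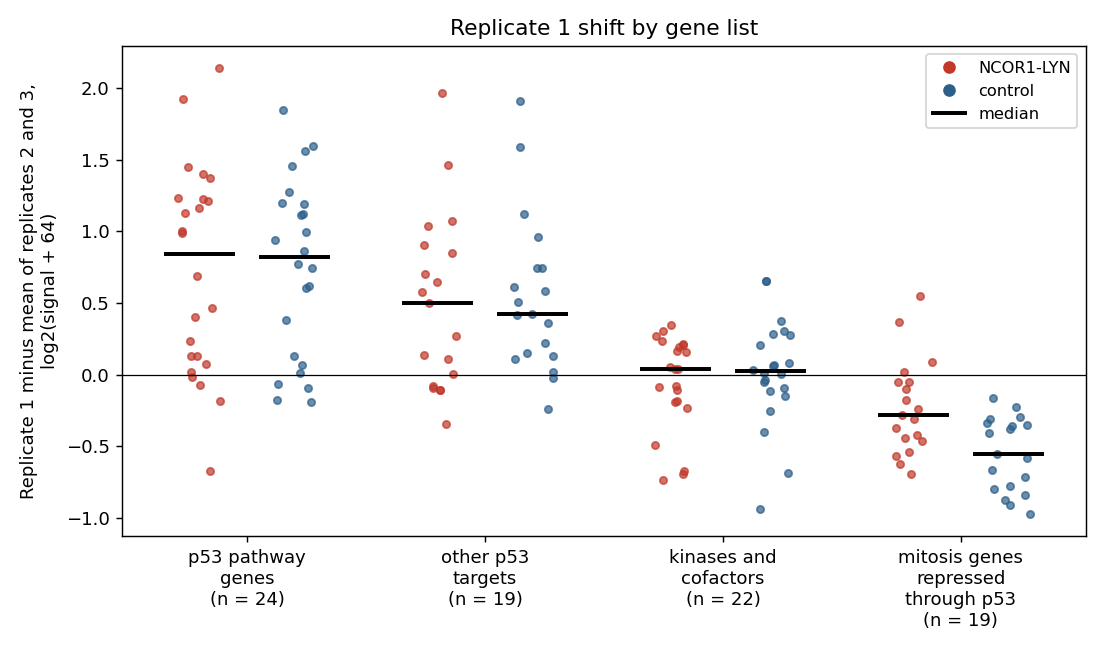
Replicate 1 minus the mean of replicates 2 and 3 in log2(signal + 64) for each tested gene (points) of 4 lists, NCOR1-LYN in red left of control in blue, with the median as a bar. The medians of the p53 pathway genes are 0.84 and 0.82, those of the further targets 0.50 and 0.42, those of kinases and cofactors 0.04 and 0.02, and those of the mitosis genes −0.28 and −0.55.

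Other measures also moved with replicate 1, and their part in these differences was not tested. For the control probe sets of beta-actin, the signal at the 3′ end over that at the 5′ end was 1.15 in replicate 1 and 1.19 and 1.23 in replicates 2 and 3 of NCOR1-LYN, and 1.17 in replicate 1 and 1.23 and 1.24 in replicates 2 and 3 of control samples. The summed signal of 3 erythroid markers was 3610, 2206 and 2846 in NCOR1-LYN and 5960, 2494 and 2295 in control replicates 1, 2 and 3, most of it from Klf1. The summed signal of 6 myeloid markers was 1052, 782 and 694 in NCOR1-LYN and 683, 504 and 549 in control replicates, with Elane, Itgam and Cd14 below the limit for testing in the mean. The markers did not move together. Lyz2, the lysozyme gene, had 653, 261 and 183 in NCOR1-LYN and 375, 155 and 162 in control replicates, high in replicate 1. Mpo, the myeloperoxidase gene, had 75.2, 257 and 313 in NCOR1-LYN and 23.4, 197 and 154 in control replicates, low in replicate 1.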

How the data were processed

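RNA was hybridised to Affymetrix 3′ expression arrays, 1 per sample. The authors deposited 1 linear intensity per probe set and array. MAS5 is the tool named in the submitters' processing notes, and its version is not given in the sources used here. In every column the mean without the top and bottom 2% of values is 500, which shows how arrays were scaled. MAS5 subtracts mismatch signal, so folds of dim probe sets are noisy, and no detection calls were used.

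Groups and replicate numbers came from the sample titles. Of 45101 probe sets, 34945 carried a single symbol in GEO's platform annotation and were used, while 932 with several symbols, 9160 unnamed there and 64 controls were not. Each gene was read from its probe set with the highest mean of log2(signal + 64). Genes below the 40th percentile of that mean (a signal of 47.0) were left out of tests. limma (3.58.1, R 4.3.3) was fitted with lmFit and eBayes with an intensity trend to all 6 arrays, without a covariate and with the replicate number as a block, with Benjamini-Hochberg adjustment over 10916 genes, two-sided. Residual degrees of freedom were 4 and 2. The fits were tested on simulated data. Promoter windows came from RefSeq.

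Deviations of same-numbered arrays from their group means correlated across genes at 0.62, 0.41 and 0.44 for replicates 1, 2 and 3, all above 0.1, and the replicate numbers were treated as pairs. Replicates 2 and 3 were not told apart (0.48 and 0.39 when crossed). Crossing replicate 1 with replicate 2 or 3 gave correlations of −0.57 to −0.48. Deviations within a group sum to 0, so a replicate 1 apart in both groups tends to make those among replicates 2 and 3 positive, matched or crossed. The check therefore could not show that pairs 2 and 3 are matched. Pair counts and the block fit take those 2 pairs from the replicate numbers alone. The members and lists were chosen with earlier results of these data known, so no test of a list was made. All members are named, and from each other list the genes past the threshold in either fit or else the one with the largest change, except where said. Alternatives covered the offset, the filter, quantile normalization, the mean of probe sets, the block and left-out arrays.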

Additional observations from a re-analysis of the deposited data

How the results depend on the processing

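With all arrays 9 genes passed in limma (519 at an unadjusted p under 0.05), of which 0 were members. That count was 1 without a filter or with it at the 60th percentile, 90 with the replicate block, 744 without both replicate 1 arrays and 0 to 15 when 1 array was left out. Members past the threshold were 1 with the replicate block and 7 without both replicate 1 arrays, and genes of the 3 other pathway lists 1 and 6, and both counts were 0 under the other settings run. The fit without both replicate 1 arrays rests on 2 arrays per group and was chosen with earlier results of these data known. The members' median log2 fold change, −0.20, ran from −0.42 to 0.051 when 1 array was left out, 0.051 being without control replicate 1, −0.42 without control replicate 2, −0.39 without control replicate 3 and −0.40 without NCOR1-LYN replicate 1, since each leaves replicate 1 with unequal weight in the groups. Without NCOR1-LYN replicate 2 or 3 it was −0.07 and −0.10. Log2 fold changes whose sign turned when 1 array was left out, with their ranges, were those of Aen (−0.69 to 0.16), Ccng1 (−0.58 to 0.064), Cdkn1a (−0.71 to 0.031), Ddb2 (−0.14 to 0.21), Ei24 (−0.18 to 0.037), Ercc5 (−0.78 to 0.12), Mdm2 (−0.51 to 0.071), Mdm4 (−0.18 to 0.57), Phlda3 (−0.72 to 0.26), Polk (−0.48 to 0.30), Ppm1d (−0.21 to 0.065), Rps27l (−0.012 to 0.035), Tnfrsf10b (−0.18 to 0.043), Xpc (−0.43 to 0.15) and Zmat3 (−0.83 to 0.35). In the same fits, which have no block, others kept their sign but moved by over 1.5 times, namely Trp53inp1 (−1.49 without NCOR1-LYN replicate 1 to −0.16 without control replicate 1), Btg2 (−0.83 to −0.022), Fas (−0.71 to −0.094), Plk3 (−0.89 to −0.28), Sesn1 (−0.69 to −0.33), Dcxr (−0.53 to −0.17), Cd82 (−0.17 to −0.064) and Gadd45a (0.30 to 0.82), which leaves Rrm2b (0.24 to 0.31) alone among tested members. The sign also turned for Ddb2 with a larger offset (−0.0025), for Ppm1d with the mean of probe sets (0.0005), and without both replicate 1 arrays for Xpc (0.12) and Rps27l (−0.0042). In the fit to all arrays without the block 0 members passed, whether their sign turned or not. Of the genes whose sign turned, Cdkn1a, Ccng1 and Zmat3 fell without both replicate 1 arrays. Apart from the left-out arrays the cause of the turned signs was not tested. The count of members lower in all 3 pairs, 11, was 10 to 12 under the other offsets, filters, scaling and probe set rule, and that of members above in both replicate 1 arrays, 17, was 15 to 18, in settings added after the data were seen. Quantile normalization moved the median log2 fold change of all genes to −0.02, against −0.01.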
